A study of Mus musculus with 30 samples.

Results

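The genes described here are 4 cytochrome P450 genes of the mouse Cyp2a family (Cyp2a4, Cyp2a5, Cyp2a12 and Cyp2a22), 3 of the Cyp2b family (Cyp2b9, Cyp2b10 and Cyp2b13), the nuclear receptors Nr1i2 and Nr1i3, and the P450 reductase Por. They were taken by gene symbol from tables of 14259 genes for postnatal day (PND) 1 and PND21 and of 13091 genes for PND42, and all 10 were found in each table. The RNA came from livers of the outbred mouse stock CD-1. Gestational exposure was to CdCl2 at 500 ppb, and controls had none. Females were studied on PND1 (4 control and 4 exposed), PND21 (3 and 3) and PND42 (4 and 4), and males on PND42 only (4 and 4), which made 30 libraries of 1 animal each as far as the labels say. Litters are not given in the labels, so that the p-values measure the spread between these animals.

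Cyp2a and Cyp2b enzymes sit in the endoplasmic reticulum of hepatocytes, where they oxidise steroids, bile acids and foreign compounds with electrons passed on from NADPH by the reductase POR. CAR, the product of Nr1i3, and PXR, the product of Nr1i2, are receptors that sense drugs and bile acids, pair with RXR and raise the transcription of P450 genes, of which Cyp2b10 is the textbook target of CAR in mouse liver. Several of these P450 genes are also known to be sex-biased in mouse liver, where the male pattern of growth hormone release keeps female-predominant genes such as Cyp2b9, Cyp2b13 and Cyp2a4 low.

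All 7 P450 genes lie in a stretch of 1139.8 kb on chromosome 7 of build mm10, from base 25897620 (the start of Cyp2b10) to base 27037375 (the end of Cyp2a12), and each is annotated as protein coding. Nr1i3 is on chromosome 1 (171213970 to 171220701, plus strand), Por on chromosome 5 (135670033 to 135735326, plus strand) and Nr1i2 on chromosome 16 (38248323 to 38294824, minus strand). Within the chromosome 7 cluster, 2 pairs of genes have nearly the same sequence before their transcription start. They are shown because the members of 1 pair had the same sex pattern and those of the other did not. The runs are the 250 bases before the start in the RefSeq promoter table of build GRCm38.p6, plus strand. RefSeq starts differ from those of the gene positions above, so that the runs of Cyp2a4, Cyp2a5 and Cyp2b10 end past the latter. Capitals mark bases that differ within a pair or have no partner in it, since the Cyp2a4 and Cyp2a5 windows are offset by a single base.
Cyp2b9 (chr7:26173159-26173408): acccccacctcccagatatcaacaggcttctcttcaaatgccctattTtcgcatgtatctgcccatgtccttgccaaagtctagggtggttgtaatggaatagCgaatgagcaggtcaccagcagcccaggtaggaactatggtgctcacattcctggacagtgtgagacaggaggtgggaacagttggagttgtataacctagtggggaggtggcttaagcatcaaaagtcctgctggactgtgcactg
Cyp2b13 (chr7:26061245-26061494): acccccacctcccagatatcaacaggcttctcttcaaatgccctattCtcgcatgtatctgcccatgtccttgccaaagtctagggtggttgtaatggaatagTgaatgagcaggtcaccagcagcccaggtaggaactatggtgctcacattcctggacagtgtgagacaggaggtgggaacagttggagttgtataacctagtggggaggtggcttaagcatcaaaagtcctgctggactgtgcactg
Cyp2a4 (chr7:26306942-26307191): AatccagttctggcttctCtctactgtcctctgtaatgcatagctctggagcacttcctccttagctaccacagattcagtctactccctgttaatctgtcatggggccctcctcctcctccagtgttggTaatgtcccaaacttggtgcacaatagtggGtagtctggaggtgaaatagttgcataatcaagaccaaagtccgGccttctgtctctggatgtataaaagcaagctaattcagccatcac
Cyp2a5 (chr7:26835089-26835338): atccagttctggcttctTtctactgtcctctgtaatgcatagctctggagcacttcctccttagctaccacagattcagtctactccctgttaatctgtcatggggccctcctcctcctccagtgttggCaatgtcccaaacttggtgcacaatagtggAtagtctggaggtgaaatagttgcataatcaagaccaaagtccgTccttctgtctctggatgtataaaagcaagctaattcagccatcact
Over the whole window of 300 bases, which includes 50 bases after the start, Cyp2b9 and Cyp2b13 had 2 substitutions (99.3% identity) and Cyp2a4 and Cyp2a5 had 5 (98.3% identity over 299 aligned bases). Cyp2a12 and Cyp2a22 were 90.7% identical over 289 aligned bases. Cyp2b10, the drug-inducible gene of the cluster, was 77.2% identical to Cyp2b9 over 289 aligned bases. Its run is shown with the 8-base element TTGCATAA, a type bound by C/EBP and PAR bZip factors, in capitals.
Cyp2b10 (chr7:25897408-25897657): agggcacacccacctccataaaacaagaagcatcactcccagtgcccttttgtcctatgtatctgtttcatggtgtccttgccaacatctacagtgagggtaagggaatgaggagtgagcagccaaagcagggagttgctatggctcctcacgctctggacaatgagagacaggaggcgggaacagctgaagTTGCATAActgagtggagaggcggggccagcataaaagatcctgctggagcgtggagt
Searched on both strands, this element was present once each in the windows of Cyp2a4, Cyp2a5 and Cyp2b10, 70, 71 and 58 bases before the RefSeq start. It was in 0.743% of the 32851 promoter windows of the table. It was not matched in the windows of the other 7 genes. The palindrome TTCNNNGAA, the type bound by STAT5, was in 8.30% of all windows and in none of those of the 10 genes. A match or its absence in this window describes letters only.

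Most of each transcript was its own. Of the stretches of 125 bases (the read length) in the longest coding transcript, 93.7% for Cyp2a4, 91.4% for Cyp2a5, 94.7% for Cyp2a12, 95.1% for Cyp2a22 and 100% for Cyp2b9 and Cyp2b10 occurred in no other gene's transcripts, and 93.6% for Cyp2b13. For Nr1i3 the share was 63.4%, because its longest transcript runs into the exons of the neighbouring gene Tomm40l. Tomm40l itself was at 184 to 566 normalised counts in PND42 female controls, against 15724 to 21305 for Nr1i3. Normalised counts are read counts divided by a library factor, as deposited, and differences are given as log2 fold changes (± SE) fitted with limma to log2(normalised count + 1), with p-values adjusted over all genes tested. An estimate smaller than its own SE is not given as a fold.

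Liver identity and depth were checked once for the series. The tables held 7 of 8 hepatocyte markers, 12 of 12 erythroid markers at PND1 and PND21 but 6 of 12 at PND42, and 1 of 8 exocrine pancreas markers, and depth was 22027514 to 40088312 reads a library. The exposed PND42 females differed from their controls in measures of the RNA as a whole. Mitochondrially encoded reads were 27.6% ± 6.29 of the total against 8.49% ± 3.15 (SD, n = 4 each). The mean log2 level of the nuclear RNAs Malat1 and Neat1 was 15.65 ± 0.18 against 13.81 ± 0.59, and the summed hepatocyte markers were 1372110 to 2392570 normalised counts against 2840880 to 4120120. The groups did not overlap in any of these measures (two-sided exact permutation p = 0.0286 for each, the smallest that 4 against 4 allows, and 0.19 after adjustment over 20 such tests). In that comparison 40.2% of all genes passed the test.

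**Figure D1:**
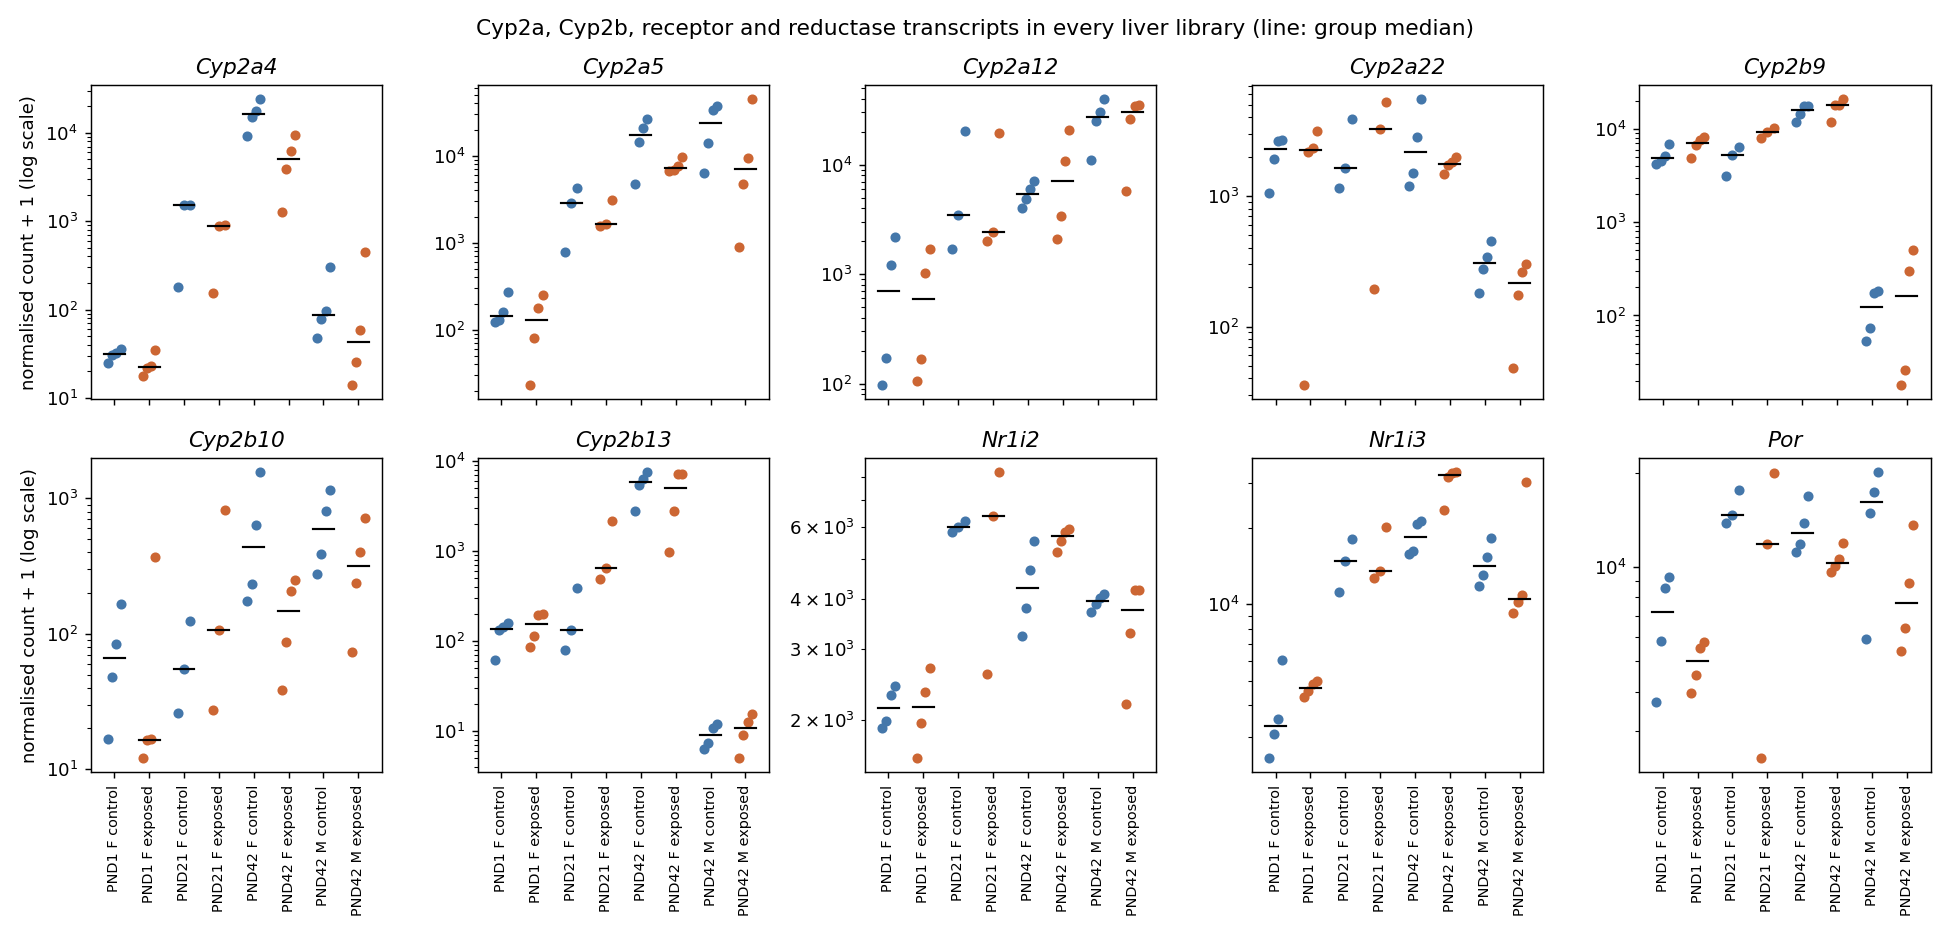
Normalised counts plus 1 (log axis) of the 10 genes in each of 30 liver libraries, by age, sex (F, female; M, male) and exposure; each point is 1 library, blue for control and orange for cadmium-exposed, and the line is the group median. Cyp2a4, Cyp2a22, Cyp2b9 and Cyp2b13 separate females from males at PND42, and the points of Cyp2a12, Cyp2a22 and Cyp2b10 spread widely within several groups.

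The first feature of the P450 genes in these livers was how far animals of 1 group differed. Cyp2a12, an enzyme that rehydroxylates secondary bile acids in mouse liver, was at 96, 172, 1219 and 2174 normalised counts in the 4 control newborns and at 1686, 167, 1018 and 104 in the 4 exposed newborns. In each group 2 animals were therefore high and 2 low. At PND21 a single animal in each group stood above the others, with 1705, 3474 and 20126 in controls and 1994, 2439 and 19347 in exposed females. Cyp2a22, its neighbour in the cluster, was at 35 in 1 exposed newborn against 2161 to 3117 in the other 3, and at 194 in 1 exposed female at PND21 against 3274 and 5269.7. Cyp2b10, the CAR target, reached 368 in 1 exposed newborn and was at 11 to 16 in the other 3, and reached 819.8 in 1 exposed female at PND21 against 26 and 106.

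Pooled over the 8 groups, the SD of log2 values between animals of a group was 1.60 for Cyp2b10, 1.55 for Cyp2a22, 1.54 for Cyp2a12, 1.28 for Cyp2a5, 1.26 for Cyp2a4, 1.00 for Cyp2b9 and 0.86 for Cyp2b13. The median over 10949 genes with a mean of at least 100 normalised counts was 0.30, and 97.3% (Cyp2b13) to 99.6% (Cyp2b10) of those genes had a smaller SD than these P450s. The receptors were closer to other genes, at 0.36 for Nr1i2 and 0.42 for Nr1i3, and Por was at 0.66. In the 22 female libraries alone the SD of Cyp2b9 was 0.34, with 74.5% of genes below it, while that of the other 6 P450s was 0.95 to 1.73, with 98.3% to 99.6% of genes below. In the 8 males, Cyp2b9 ranged from 17 to 497 normalised counts.

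**Figure D2:**
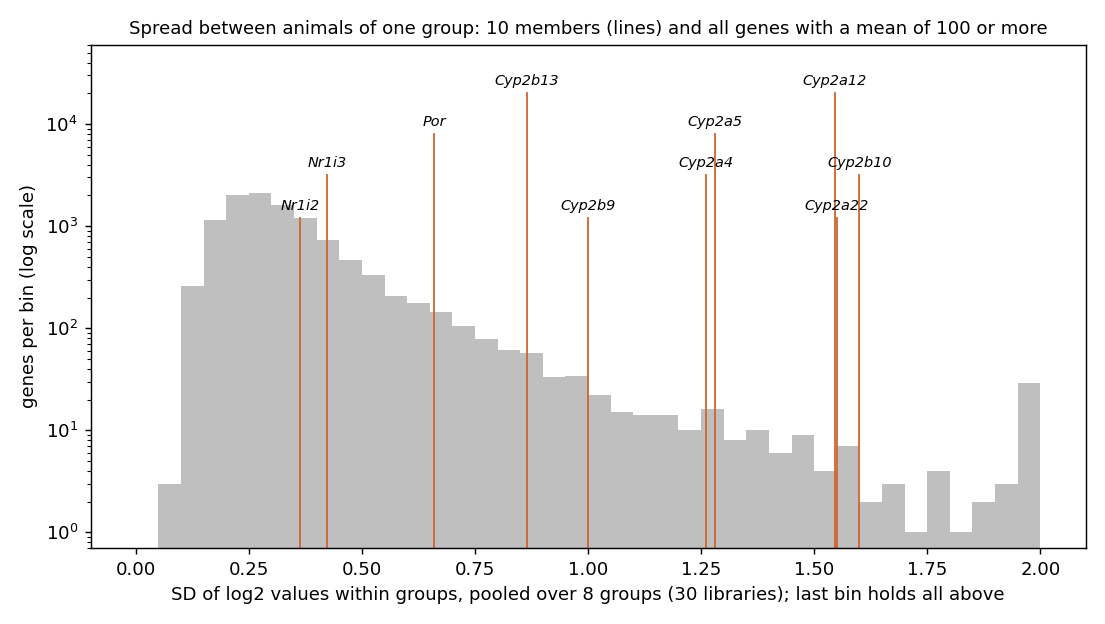
Histogram (grey, log axis of gene number) of the SD of log2 values within groups for 10949 genes over 30 libraries, with a vertical orange line at the value of each of the 10 genes. The 7 P450 genes lie at 0.86 to 1.60 in the right tail and Nr1i2 and Nr1i3 at 0.36 and 0.42, near the bulk.

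Between birth and weaning, the comparison of PND21 with PND1 control females asked which of these genes matured in unexposed liver. Both receptors and 2 Cyp2a genes rose, while the Cyp2b genes did not pass the test. Nr1i3 was at 2479, 3092, 3543 and 6049 normalised counts at PND1 and at 11178, 14784 and 18149 at PND21, with no overlap, a log2 fold change of 2.01 ± 0.26 (limma adjusted p = 1.48e-05). Nr1i2 went from 1918, 1991, 2306 and 2427 to 5836, 6004 and 6215, a log2 fold change of 1.48 ± 0.30 (limma adjusted p = 0.000639). Every PND21 library was above every PND1 library for both receptors.

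Cyp2a4, a steroid hydroxylase, was barely present in newborns, at 24 to 35 normalised counts, and was at 178, 1514 and 1519 at PND21 (log2 fold change 4.60 ± 0.71, limma adjusted p = 9.83e-05). Cyp2a5, the coumarin hydroxylase of mouse liver, went from 123 to 273 at PND1 to 788, 2836 and 4287 at PND21 (3.70 ± 0.75, limma adjusted p = 0.00117). For both, the lowest PND21 animal was the same control and was still above all newborns. Por, the reductase, had no overlap between ages (3707 to 9296 at PND1, 13868 to 17709.6 at PND21), but its change of 1.25 ± 0.54 did not pass (limma adjusted p = 0.0611), nor did that of Cyp2a12 at 3.42 ± 1.42 (limma adjusted p = 0.059).

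Cyp2b9, a female-predominant P450, was already abundant at birth, with 4190.2 to 6857 normalised counts in control newborns and 3085 to 6437 at PND21. Cyp2a22 likewise had similar ranges of 1056 to 2699 and 1156 to 3899.7. In all, 4 of the 10 genes rose and none fell in this comparison, in which 56% of all genes passed, and 5 of 10 had groups that did not overlap, as had 55.2% of all genes. The livers changed in cell markers over the same time. All 7 measured hepatocyte markers rose, with a sum of 1233870 to 2085740 normalised counts at PND1 and 2542070 to 4879670 at PND21, and all 12 erythroid markers fell, from 235914 to 388215 down to 27857 to 86164. In bulk liver, fewer or more cells of a type and a change of RNA per cell cannot be told apart. The share of these changes in the rise of the receptors and Cyp2a genes was not tested.

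The known partners of these genes were followed through lists drawn from textbook knowledge, but chosen with earlier results of these data known. Their counts are therefore descriptive only. They stand beside 56% of all genes that passed, 3944 of 14259 higher and 4041 lower. Of 29 measured target genes of CAR and PXR, 19 rose and 2 fell between PND1 and PND21, with a median log2 fold change of 1.13 against 0.01 over all genes. Aldh1a1, a retinaldehyde dehydrogenase, rose by 5.35 ± 0.17 (limma adjusted p = 1.94e-11), and Akr1b7, an aldose reductase-like enzyme, fell by 5.98 ± 0.34 (limma adjusted p = 6.32e-09). Of 21 other Cyp2 genes of liver, 16 rose and none fell (median 2.03). Among 22 partners and controllers of the receptors 10 rose and 2 fell, including a rise of Prkaa2, an AMP-kinase subunit (2.73 ± 0.18, limma adjusted p = 1.99e-08). Of 12 genes in the list of Cyp2a5 regulators, which also holds the P450 gene Cyp1a1, 7 rose and 1 fell. Of 15 growth hormone signalling genes and sex-biased regulators 9 rose and 3 fell, with Igf1, a growth hormone target, higher by 4.17 ± 0.26 (limma adjusted p = 1.01e-08). Among 16 genes of electron transfer and heme 5 rose and 6 fell, among them Cyb5r3, the cytochrome b5 reductase, which rose by 1.73 ± 0.17 (limma adjusted p = 8.85e-07).

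At PND42 the comparison of control females with control males asked which of these genes were sex-biased. Cyp2b13 was at 2774, 5444, 6309 and 7468 normalised counts in females and at 5.3, 6.5, 9.8 and 11 in males, a log2 fold change of 9.19 ± 0.54 (limma adjusted p = 1.57e-08). Cyp2b9 was at 11738, 14298, 17481 and 17758 in females and at 52, 72, 174 and 181 in males (7.16 ± 0.89, limma adjusted p = 0.000404). The 2 genes whose promoter windows differ at 2 bases were thus both higher in every female than in any male.

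The other pair differed. Cyp2a4 was at 9206, 15163, 17731 and 23982 in control females and at 47, 78, 94 and 301 in control males, a log2 fold change of 7.26 ± 0.96 (limma adjusted p = 0.000683). Cyp2a5 overlapped between the sexes, with 4728, 14318, 20668 and 26246 in females and 6275, 13932, 33214 and 36816 in males. The 95% interval of its sex difference was -2.45 to 1.67, and that of Cyp2a4 was 5.18 to 9.33. Their transcripts were 98.3% identical over 1738 aligned bases.

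Cyp2a22 was also higher in females (1183, 1503, 2822 and 5505) than in males (178, 275, 339 and 449), by 2.96 ± 0.54 (limma adjusted p = 0.00503). Cyp2a12 leaned the other way without overlap, with 4056 to 7083 in females and 11084 to 39558 in males, but its difference of -2.16 ± 0.69 did not pass (limma adjusted p = 0.0731). With only the 2 control groups in the fit it did, with the same difference (limma adjusted p = 0.00731). Cyp2b10 overlapped, at 173 to 1557 in females and 274 to 1144 in males, as did Nr1i2, Nr1i3 and Por. In all, 4 of the 10 genes were higher in females and none in males, where 6.93% of all genes passed, and 5 of 10 did not overlap, against 12.4% of all genes. Without the female control library whose column carries no replicate number, the 4 calls held. Among cell markers, 5 of 8 Kupffer cell markers were higher in females, with sums of 6221 to 10392 against 3443 to 5243, and 2 of 7 hepatocyte markers were lower, and their part in the sex differences was not tested.

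Sex was not tested within exposed animals. There, Cyp2b9 was at 11829 to 20758 in exposed females and 17 to 497 in exposed males, and Cyp2b13 at 968 to 7142 and 4 to 15. Cyp2a12 overlapped in exposed animals, at 2105 to 20755 in females and 5732 to 35244 in males. Where 6.93% of all genes passed, 3 of the 28 CAR and PXR targets were higher in control females and 5 in control males, and of 21 other Cyp2 genes 4 and 4. Among growth hormone signalling genes and sex-biased regulators, 4 of 15 were higher in control females and 1 in control males. Cux2, a female-predominant repressor, was higher by 4.89 ± 0.81 (limma adjusted p = 0.00292), and Bcl6, a male-predominant repressor, differed by -2.25 ± 0.47 (limma adjusted p = 0.01).

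**Figure D3:**
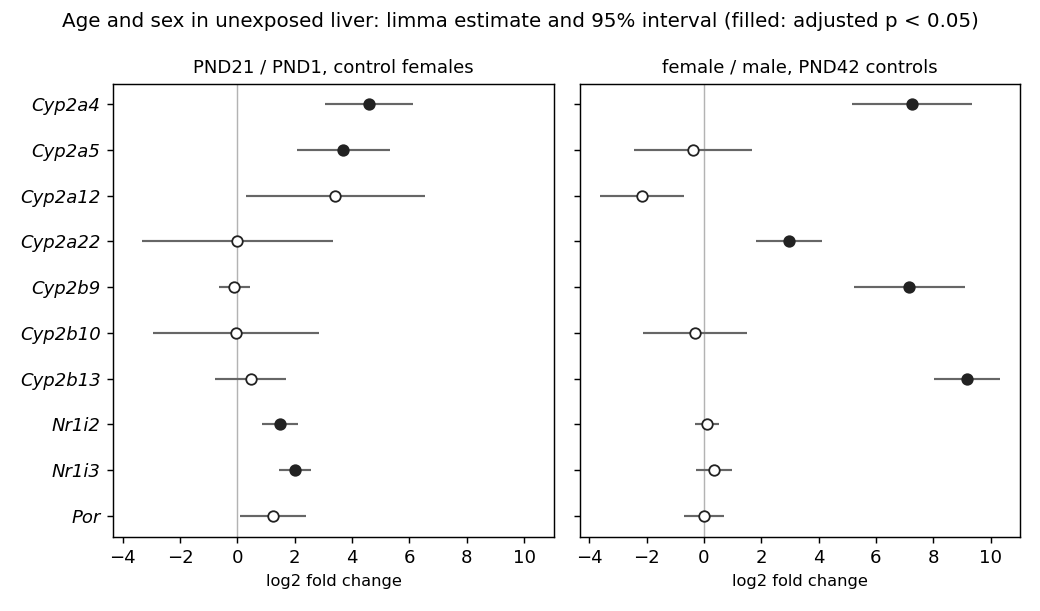
Log2 fold changes of the 10 genes with 95% intervals (horizontal bars) from limma, for PND21 over PND1 control females (left) and female over male PND42 controls (right); filled points passed an adjusted p of 0.05. Cyp2a4 is filled in both panels, Cyp2a5, Nr1i2 and Nr1i3 with age only, and Cyp2a22, Cyp2b9 and Cyp2b13 with sex only.

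Levels between genes were compared as normalised counts per kilobase of all annotated exons, and again per kilobase of the longest coding transcript, a length chosen after seeing the data. The 2 lengths differ most for Cyp2a12 (3457 and 1681 bases), Cyp2a22 (3445 and 1796), Por (4021 and 2636) and Nr1i3 (4414 and 2980). In control newborns Cyp2b9 was at 2755 ± 632 per kb by either length and Por at 1704 ± 641 by exons and 2599 ± 978 by transcript, and Cyp2a4 was lowest at 17.3 ± 2.7 by either. At PND21 Por had the highest control mean by either length (3839 ± 501 and 5857 ± 764), and Cyp2b10 the lowest (31.8 ± 23.7 and 35.0 ± 26.1). In PND42 control females the highest means by either length were those of Cyp2a4 (9506 ± 3523 by exons), Cyp2b9 (8166 ± 1523) and Cyp2a5 (7955 ± 4454), which did not differ beyond their spread. In control males the order of Cyp2a5 and Cyp2a12 depended on the length, with Cyp2a5 at 10880 ± 7135 by exons and 11207 ± 7348 by transcript, and Cyp2a12 at 7635 ± 3435 and 15702 ± 7065. Cyp2b13 was last in males at 4.36 ± 1.46 by either. PND42 was normalised apart from the younger ages, so that levels are not set across them.

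Exposure was then compared with control within each age and sex. In newborn females none of the 10 genes passed, as none of all genes did (0%), and none had groups that did not overlap (7.76% of all genes). No member was under an unadjusted p of 0.05, where 2039 of 14059 genes were. Cyp2b9 was at 4190.2, 4536, 5091 and 6857 normalised counts in controls and 4828, 6646, 7613 and 8121 in exposed newborns, a log2 fold change of 0.40 ± 0.20 (limma adjusted p = 0.382). Nr1i3 was at 2479 to 6049 in controls and, more evenly, at 4309 to 4995 in exposed newborns (0.38 ± 0.23, limma adjusted p = 0.456). Por was at 3707 to 9296 in controls and 3948 to 5749 in exposed newborns (-0.40 ± 0.27, limma adjusted p = 0.501). For the 3 most variable genes the 95% intervals allowed large differences in either direction, from -3.37 to 3.10 for Cyp2a12, -4.67 to 2.32 for Cyp2a22 and -3.47 to 1.88 for Cyp2b10.

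In weanling females 2 of the 10 genes had groups that did not overlap, which is near the share of 16.6% over all genes. Both are Cyp2b genes that were higher in control females than in control males at PND42, and no males were measured at PND21. Cyp2b9 was at 3085, 5241 and 6437 normalised counts in controls and at 8053, 9189 and 10103 in exposed females, means of 4921 ± 1699 and 9115 ± 1027 (SD, n = 3 each). Cyp2b13 was at 79, 132 and 383 in controls and at 493, 649 and 2133 in exposed females, means of 198 ± 162 and 1092 ± 905. For both genes every exposed animal was above every control. The log2 fold changes were 0.95 ± 0.29 for Cyp2b9 (95% interval 0.30 to 1.60) and 2.47 ± 0.75 for Cyp2b13 (0.65 to 4.28). Neither passed over 13886 genes tested (limma adjusted p = 0.426 and 0.452), and none of the 10 genes passed where 0.036% of all genes did. Both were under an unadjusted p of 0.05, as were 1329 of all genes.

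In the authors' deposited table, by contrast, both passed at PND21, with a log2 fold change of 0.889 and an adjusted p of 0.0404 for Cyp2b9 and of 2.465 and 0.00298 for Cyp2b13. The authors' deposited table gives 446 genes under an adjusted p of 0.05 at PND21, of about 14240 with an adjusted p. At PND1 it gives 72 of 6790. No other of the 10 genes is among them, but Cyp2a4, Cyp2b10 and Cyp2b13 have no adjusted p at PND1. Every exposed library at this age was deeper than every control library (24800467 to 28260376 against 22027514 to 24589311 reads), and under scaling by total reads the differences were 1.19 for Cyp2b9 and 2.70 for Cyp2b13 while the median gene moved by 0.23. The third exposed library was low in Por (2447, against 11874 and 19984), in Nr1i2 (2596, against 6405 and 8209) and in Cyp2a22. Por overlapped the controls (13868 to 17709.6) and its log2 fold change was -0.88 ± 0.71 (limma adjusted p = 0.682). Without that library the estimate for Por was 0.00. Mitochondrially encoded reads were 23.4% in that library and 12.1% to 18.3% in the others of that age. It also had the highest summed stellate cell markers (36433 against 16618 to 22049), cholangiocyte markers (4926 against 1955 to 2823) and pancreas marker (2096 against 613 to 1228). Summed hepatocyte markers were 1929220 to 2719200 in exposed females and 2542070 to 4879670 in controls of that age, and the part of these markers in the values of the 10 genes was not tested.

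The difference in exposure effect between PND21 and PND1 passed for none of the 10 genes, where 0.014% of all genes did. It was 2.20 ± 0.82 for Cyp2b13 (limma adjusted p = 0.46) and 0.55 ± 0.35 for Cyp2b9 (limma adjusted p = 0.653). None of the 29 measured CAR and PXR targets passed at either age. Among the partners of the receptors, Nr0b2, a repressor of nuclear receptors also called SHP, had the lowest p at PND21, at 504 ± 96 in controls and 2609 ± 1414 in exposed females (2.26 ± 0.34, limma adjusted p = 0.168). Among growth hormone genes it was Socs2, a feedback inhibitor of the receptor's signal (-1.16 ± 0.22, limma adjusted p = 0.307), and the median of that list was -0.40 against -0.01 over all genes.

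**Figure D4:**
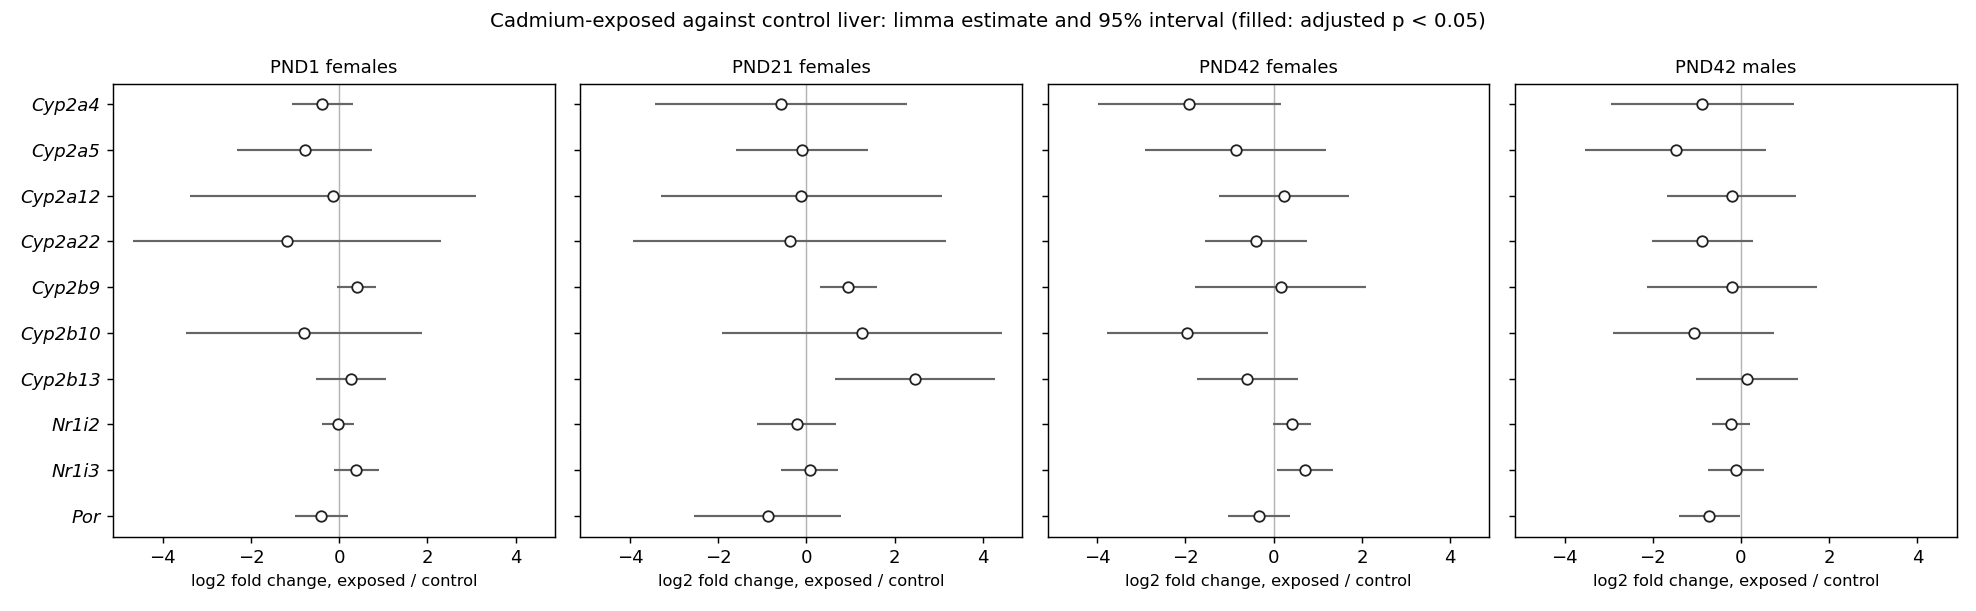
Log2 fold changes of cadmium-exposed over control liver for the 10 genes with 95% intervals (horizontal bars) from limma, by age and sex. No point is filled, since none passed an adjusted p of 0.05, and the intervals that leave out 0 are those of Cyp2b9 and Cyp2b13 at PND21, of Nr1i3 (above 0) and Cyp2b10 (below 0) in PND42 females and of Por (below 0) in PND42 males.

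In PND42 females the receptor Nr1i3 separated the groups. It was at 15724, 16207, 20745 and 21305 normalised counts in controls and at 23472, 31749, 32964 and 33075 in exposed females, means of 18495 ± 2936 and 30315 ± 4601 (SD, n = 4 each). Every exposed female was above every control, and Nr1i3 was the 1 of 10 members whose groups did not overlap. Over all genes 45.9% had groups that did not overlap, counted in either direction. The log2 fold change of 0.71 ± 0.30 did not pass in the fit of all 4 PND42 groups (limma adjusted p = 0.0678) and did with the 2 female groups alone (limma adjusted p = 0.00691). Over all genes, 5269 passed in the fit of 4 groups and 6406 with the female groups alone. Nr1i2 was at 3234, 3793, 4697 and 5558 in controls and at 5219, 5558, 5839 and 5947 in exposed females, overlapping, with a log2 fold change of 0.41 ± 0.21 (limma adjusted p = 0.121). All 4 exposed females were above the control mean for both receptors.

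Cyp2b10 and Cyp2a4, by contrast, had estimates below 0. Cyp2b10 was at 173, 233, 634 and 1557 in controls and at 38, 86, 207 and 250.0 in exposed females, a log2 fold change of -1.96 ± 0.85 (limma adjusted p = 0.0806), and all 4 exposed females were under the control mean. Without control replicate 4, the lowest control, its difference was -2.42 (limma adjusted p = 0.0453). Leaving out the lowest control must enlarge a fall, so no conclusion is drawn from this. Cyp2a4 was at 9206, 15163, 17731 and 23982 in controls and at 1270.4, 3897, 6266 and 9354 in exposed females, with an overlap of 1 animal from each group. Its log2 fold change of -1.92 ± 0.96 did not pass (limma adjusted p = 0.13) but did with the female groups alone (limma adjusted p = 0.03) and by limma voom on the whole reads (limma adjusted p = 0.0302). Over all genes these fits called 6406 and 5590.

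Cyp2b9 was at 11738 to 17758 in controls and 11829 to 20758 in exposed females, and Cyp2a5 was at 4728 to 26246 and 6656 to 9706. Cyp2b13 was at 2774 to 7468 in controls and 968 to 7142 in exposed females (-0.60 ± 0.54, limma adjusted p = 0.403), and without the third exposed female the difference was 0.01. Por was at 11198 to 16842 and 9627 to 11942 (-0.34 ± 0.33, limma adjusted p = 0.441), and its sign turned (0.06) when reads were scaled to the total without mitochondrially encoded ones. In that scaling the median gene moved by 0.39, Nr1i3 was at 1.10 and Nr1i2 at 0.80, both passing (limma adjusted p = 0.00627 and 0.00696). The same scaling called 5721 of all genes. None of the 10 genes passed in the fit of 4 groups, against 40.2% of all genes. The mitochondrial share, Malat1 and Neat1 and the hepatocyte markers differed between the same groups as given above, and their part in the values of Nr1i3, Nr1i2, Cyp2b10 and Cyp2a4 was not tested. Of the other cell types, 4 of 8 Kupffer cell markers fell, with sums of 4197 to 7340.3 against 6221 to 10392. Of the stellate cell markers 2 of 8 fell, with sums of 9296 to 11429 against 11818 to 15127 that did not overlap. The pancreas marker Cela1 was at 519 to 677 against 1070.4 to 1676. Of 6 cholangiocyte markers 1 rose and 2 fell, with sums of 1257 to 1533 against 1426 to 2371, and none of 6 erythroid markers passed.

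**Figure D5:**
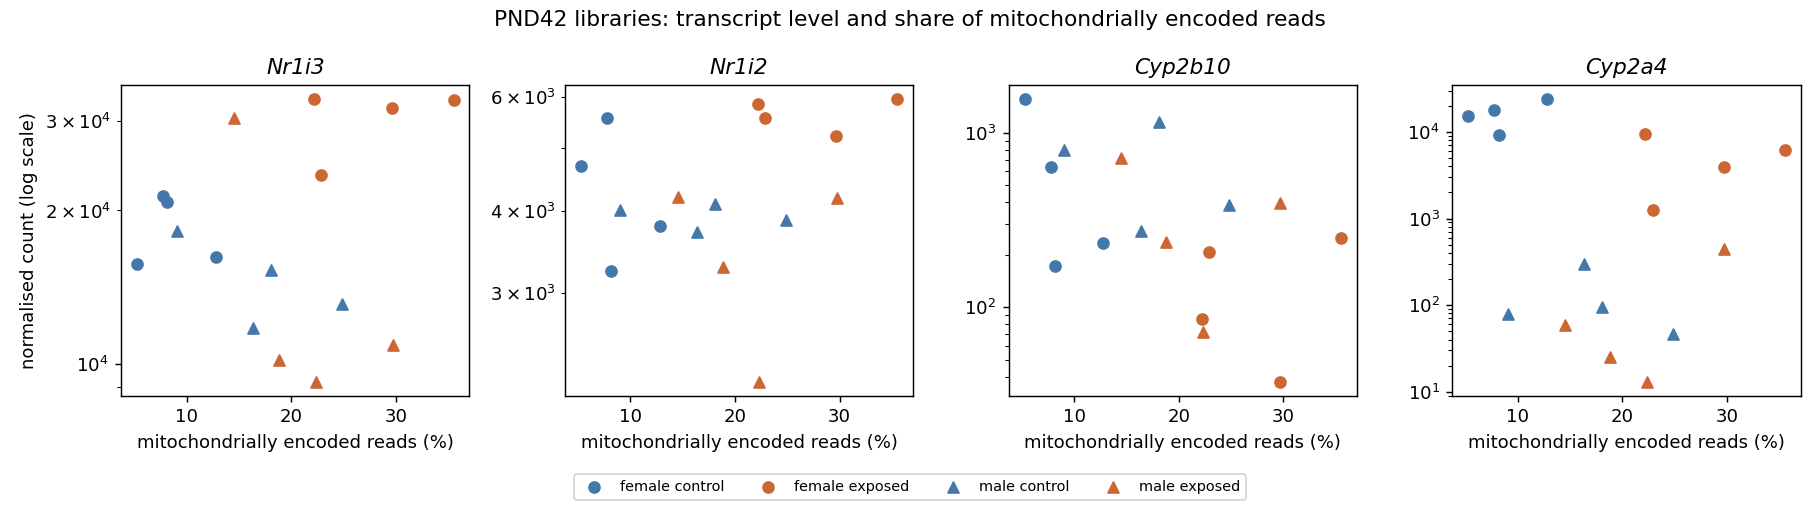
Normalised counts (log axis) of Nr1i3, Nr1i2, Cyp2b10 and Cyp2a4 against the share of mitochondrially encoded reads (%) in the 16 PND42 libraries; circles are females, triangles males, blue control and orange exposed. The 4 exposed females lie at 22.2% to 35.5% mitochondrial reads and the 4 control females at 5.25% to 12.8%, while both male groups lie between 9.03% and 29.7%.

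The counts of the lists in these exposed females stand beside 40.2% of all genes that passed, with 2468 of 13091 higher and 2801 lower. Of 28 measured CAR and PXR targets 10 fell and none rose, with a median log2 fold change of -0.79 against 0.00 over all genes. Cyp2c37 fell by 2.94 ± 0.41 (limma adjusted p = 8.59e-05), Cyp2c29 fell by 3.13 ± 0.55 (limma adjusted p = 0.000484) and Cyp2c50 fell by 1.30 ± 0.26 (limma adjusted p = 0.000911). All 3 are P450 genes of the Cyp2c family known to be raised by CAR activators. Among 22 partners and controllers of the receptors 8 rose and 4 fell. The coactivators Ncoa1 (1.25 ± 0.21, limma adjusted p = 0.000247) and Ncoa3 (0.96 ± 0.15, limma adjusted p = 0.000114) rose, and Cebpa, a hepatocyte transcription factor, fell by 1.60 ± 0.19 (limma adjusted p = 2.02e-05).

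Among 16 genes of electron transfer and heme 7 fell and 2 rose. Cyb5a, the cytochrome b5 that aids P450 reactions, fell by 1.30 ± 0.27 (limma adjusted p = 0.00124), and Hmox1, heme oxygenase, by 2.09 ± 0.28 (limma adjusted p = 4.63e-05). Of 12 measured genes in the list of Cyp2a5 regulators, Nfe2l2, the oxidative stress factor NRF2, rose by 1.25 ± 0.24 (limma adjusted p = 0.000644). The RNA-binding protein gene Hnrnpa1 fell by 0.86 ± 0.14 (limma adjusted p = 0.000168) and Hnf4a, a hepatocyte transcription factor, by 0.90 ± 0.27 (limma adjusted p = 0.0139), and 2 of the 12 rose and 2 fell in all. Of 21 other Cyp2 genes 8 fell and 2 rose, and Cyp2f2 fell by 1.52 ± 0.20 on the log2 scale (limma adjusted p = 4.22e-05). Of 15 growth hormone signalling genes and sex-biased regulators 3 rose and 2 fell. Tox, a nuclear factor, rose by 1.82 ± 0.32 (limma adjusted p = 0.000393), the growth hormone receptor Ghr rose by 0.95 ± 0.19 (limma adjusted p = 0.00103), and the liver transcription factor Onecut1 fell by 2.15 ± 0.48 (limma adjusted p = 0.00224).

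In PND42 males none of the 10 genes passed, nor did any of all genes (0%), and no group pair was without overlap (1.73% of all genes). Por was at 5907, 14943, 17404 and 20125 normalised counts in controls and at 5374, 6409, 8929 and 13647 in exposed males, a log2 fold change of -0.72 ± 0.33 (limma adjusted p = 0.622), the 1 member under an unadjusted p of 0.05, where 932 of 13091 genes were. Nr1i3 was at 11791 to 18244 in controls and at 9236, 10183, 10879.6 and 30423 in exposed males, so that 3 were under every control and 1 above. That animal, exposed male replicate 4, was the highest of its group in all of the 10 genes but Cyp2a4 and Cyp2a22, narrowly so for Cyp2a12 and Nr1i2. Its Cyp2a5 was at 44597 and its Cyp2b9 at 497. The library as a whole also stood apart, with 14.5% mitochondrial reads against 18.8% to 29.7% in the other 3. Its depth was 37404252 reads against 27763958 to 32826581, and its summed stellate cell markers were 11100 against 17389 to 18419. The log2 fold changes of Cyp2b10 (-1.07 ± 0.85), Cyp2a5 (-1.48 ± 0.96), Cyp2a22 (-0.88 ± 0.54) and Nr1i2 (-0.23 ± 0.21) were also negative in males. For Cyp2a22 all 4 exposed males were under the control mean. Cyp2b13 was the only member with a positive estimate, which was smaller than its SE. None of the 28 CAR and PXR targets passed, and their median log2 fold change was -0.36 against -0.03 over all genes.

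The difference between the exposure effects of females and males passed for none of the 10 genes, where it passed for 7.91% of all genes. It was 0.83 ± 0.43 for Nr1i3 (limma adjusted p = 0.234) and 0.64 ± 0.29 for Nr1i2 (limma adjusted p = 0.181), and for Nr1i3 it was 1.23 without exposed male replicate 4 (limma adjusted p = 0.028). That male had the highest Nr1i3 of its group, so leaving it out must enlarge the difference, and no conclusion is drawn from this. Among the CAR and PXR targets the difference passed for Cyp2c37 only, at -2.45 ± 0.59 (limma adjusted p = 0.021). Female and male effects come from separate controls, while the sex comparison uses the controls of both.

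Which genes varied with these from animal to animal was described by the Pearson correlation of deviations from group means over the 30 libraries, among 10949 genes in all tables. These values share library and depth, and carry no test. Por was closest to Asl, a urea cycle enzyme (0.87). Nr1i2 was closest to Ttll8 (0.84) and Rhobtb1 (0.84), followed by Alas1, the first enzyme of heme synthesis (0.83). Nr1i3 was closest to Cnst (0.76), followed by Cyp2c37 (0.72) and Cyp3a25 (0.71). Cyp2a4 was closest to Hao2 (0.80) and Cyp3a16 (0.74), Cyp2b13 to the sulfotransferase Sult2a6 (0.76), and Cyp2b10 to Parp6 (0.77). Cyp2a5 and Cyp2b9 were in each other's 3 closest (0.70), and Cyp2a12 was closest to Gm42984 (0.64). Cyp2a22 was closest to Acsm5 (0.71) and Masp2 (0.69), followed by Tef, a PAR bZip factor (0.68). Among the members, Nr1i2 and Por had the highest value (0.73), and the lowest was -0.36 between the neighbours Cyp2a12 and Cyp2a22.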

How the data were processed

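Liver RNA of CD-1 mice was read as single-end 125 bp reads. Per the submitters' processing notes, FastQC, STAR, featureCounts and build mm10 were used, and no version of them is stated. The authors' deposited values are log2 of a normalised count plus 1, which was read from the values: 100% came back within 0.1 of a whole read. The deposited signal column (baseMean) is the authors' mean over 14 libraries for PND1 and PND21 and over 16 for PND42, which were thus scaled apart. The deposited p-values and fold changes are the authors' own and were used only where named.

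Here limma 3.58.1 (R 4.3.3) with trend and robust settings was fitted across all genes with at least 10 normalised counts in as many libraries as the smallest group, two-sided, with Benjamini-Hochberg adjustment and a threshold of 0.05. PND1 and PND21 exposure were fitted each on its own, all PND42 comparisons in a fit of 4 groups, and the age comparisons in a fit of the PND1 and PND21 groups. The fits were run on simulated data with a single spread setting for all genes. The wider spread of these P450 genes was not simulated, so that the outcome does not bear on them. Alternatives were a pseudocount of 5, no filter, scaling by total reads with and without mitochondrially encoded ones, limma voom on whole reads, fits of the compared groups alone, limma without trend and robust settings for the sex by exposure difference, each library left out and a replicate block. Columns of 1 female and 3 male controls at PND42 carry a tag of no numbered sample of their group. They were placed by group alone, and since the labels give the female tag to a PND21 control, its sample is uncertain. Named genes are all 10 members, up to 3 genes of lowest p from each list among those that passed (the 1 of lowest p where none did), and for each member the 3 genes closest in deviations. Of the list genes so named, only some are described, and a further one is not reported here. The members and lists were chosen with earlier results of these data known. Positions and exon lengths are from GENCODE vM21 (mm10), and promoters from RefSeq (GRCm38.p6), where all 10 genes matched. Python 3.11.15, pandas 2.3.3, numpy 2.4.6, scipy 1.17.1 and matplotlib 3.10.9 were used.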

Additional observations from a re-analysis of the deposited data

Results flagged for a closer look

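Of 60 groups of 4 libraries, 5 held a library whose log2 value lay far from the other 3, measured as its gap to the nearest divided by the range of the group; the 95% limit of Dixon's test was passed. Chance flags about 1 in 20 such groups. Cyp2a22 was at 35 normalised counts in exposed newborn female replicate 1 and at 2161 to 3117 in the others (0.918). Cyp2b10 was at 368 in exposed newborn female replicate 3 and at 11 to 16 in the others (0.905). Nr1i3 was at 23472 in exposed PND42 female replicate 3 against 31749 to 33075 (0.881), and at 30423 in exposed PND42 male replicate 4 against 9236 to 10879.6 (0.863). Cyp2a12 was at 5732 in exposed PND42 male replicate 3 against 25878 to 35244 (0.83).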

How the results depend on the processing

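None of the 4 sex calls (Cyp2a4, Cyp2a22, Cyp2b9 and Cyp2b13) or of the 4 age calls (Cyp2a4, Cyp2a5, Nr1i2 and Nr1i3) was lost or reversed under the alternatives run. Of 80 estimates 44 were smaller than their own SE and are given no fold, and 35 of these changed sign under some alternative. Among the other 36, leaving out each library gave -1.51 to 0.00475 for Por at PND21 and -0.951 to 0.00969 for Cyp2b13 in PND42 females, both above 0 without exposed replicate 3, and Por in PND42 females was 0.0551 with reads scaled without mitochondrially encoded ones. That scaling also called 2 genes higher in exposed PND42 females (Nr1i2 and Nr1i3). The fit of only the groups compared called 1 higher (Nr1i3) and 1 lower (Cyp2a4) there, voom called 1 lower (Cyp2a4), and leaving out each library gave 0 to 1 lower (Cyp2b10). Leaving out each library gave 0 to 1 genes higher in the sex by exposure difference (Nr1i3). The fit of the compared groups called 1 gene higher in control males (Cyp2a12), and scaling by total reads called 1 gene lower with age (Cyp2b9), where the median gene moved by -0.50. Among all fits of the 36 estimates under an alternative, 14 passed where the main fit had not, and some of these are not named here. The cause of these changes was not tested. Over all genes, the sex comparison called 907, 2111 with scaling by total reads and 392 with the compared groups alone, and PND21 exposure called 5, 2 with voom and 8 with the replicate block. Exposure in PND42 females called 5269 of all genes, 6406 with the compared groups alone and 5590 with voom. With reads scaled without mitochondrially encoded ones it called 5721.

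Replicate numbers did not pair the animals, with correlations of -0.08 to 0.21 between deviations of same-numbered libraries. With the replicate block 1 gene was called higher at PND21 (Cyp2b13, 2.47, limma adjusted p = 0.0403), and in PND42 females 1 higher (Nr1i3, 0.74, limma adjusted p = 0.027) and 1 lower (Cyp2b10, -2.17, limma adjusted p = 0.00929). In PND42 females the block called 4987 of all genes. No paired analysis was possible for males because control and exposed columns share fewer than 2 numbers.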

Other observations

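The tables also hold 2 pseudogenes of the chromosome 7 cluster. Cyp2b27-ps, listed at PND42 only, was at 30.1 to 144 normalised counts in control and 42 to 86 in exposed females. Of the 8 males 6 were listed at 0, and the other 2 were at 2.9 and 0.86. Cyp2a21-ps, listed at PND1 and PND21 only, lies on the plus strand of chromosome 7 (26917381 to 26952346) across Cyp2a22, which is on the minus strand (26931631 to 26939384). It was at 0.69 in the exposed newborn with the low Cyp2a22 and at 89 to 119 in the other 3, and at 12 in the exposed PND21 female with the low Cyp2a22 and at 104 and 125 in the other 2. The annotated exons of the pair share 0 bases, although Cyp2a22 lies within the span of the pseudogene.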
